A study of Mus musculus with 55 samples.

Results

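Livers of R&Zflox mice taken 4 days after the last of a course of carbon tetrachloride (CCl4) injections were compared with undamaged R&Zflox livers, 2 libraries a side, and 4 of the 55 samples of the series in all. The libraries were chosen by their labels, as Wild-type with chronic damage at 4 days (CD 4d, replicates 1 and 2) and Wild-type without damage at 3 months (3M, replicates 2 and 3), all of 1 batch. Both groups were C57BL/6 mice with floxed Rnf43 and Znrf3, the genes of a pair of membrane ubiquitin ligases that remove WNT receptors from hepatocytes, and neither group carried the deletion. The study made its deleted livers with Alb1-CreERT2, a tamoxifen-activated Cre driven by the hepatocyte albumin promoter, and its methods give R&Zflox littermates oil in place of tamoxifen, while its list of samples names tamoxifen for these 4 mice. All 4 are listed there as male. The CD 4d mice were taken at a shorter time after induction than the 3M mice, so that damage, age and time after induction cannot be told apart. The damaged mice are labelled as chronically damaged, but 1 sentence of the methods gives unrecombined littermates corn oil without CCl4, and the 2 statements were not reconciled here. Libraries called CD 170d below follow the labels. The study's list of samples gives them under both 50 and 170 days, so that the time behind their values is uncertain. Nothing in the labels says more about how the replicates were obtained. The p-values rest on the spread within groups, estimated over 16 libraries of the batch in 9 groups, and this spread may be technical.

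CCl4 is made toxic by CYP2E1, the cytochrome P450 of the hepatocytes around the central vein, and repeated doses kill these pericentral cells while the surviving hepatocytes enter the cell cycle and refill the lobule. The hepatocytes of a lobule differ along the axis from the portal to the central vein: periportal cells make urea and glucose, and pericentral cells take up glutamate, make glutamine and oxidize foreign compounds. Dead cells are cleared by resident Kupffer cells and by macrophages recruited from blood monocytes, and stellate cells lay down collagen and later stop doing so. Male and female mouse livers also differ in many secreted proteins and detoxifying enzymes, among them the major urinary proteins (MUPs), which male hepatocytes secrete in bulk.

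The 2 CD 4d libraries held 30032821 and 29533996 counted reads and the 2 undamaged libraries 22678922 and 24528211. Levels are given as CPM, read counts scaled to a common library size. Across genes, the log2 CPM of the CD 4d libraries correlated with r = 0.986 and that of the undamaged libraries with r = 0.978, and pairs across the groups with r between 0.951 and 0.965. Of 49997 genes in the files, 11935 passed 1 CPM in at least 2 of the 4 libraries and were tested. A gene was called when its adjusted p was below 0.1 and its log2 fold change was beyond 1 in either direction. Adjusted p is that of edgeR's quasi-likelihood test with Benjamini-Hochberg adjustment over all genes tested, and the errors of log2 fold changes are standard errors (SE). By this rule 441 genes were called, 3.7% of those tested, with 243 higher (2.04%) and 198 lower (1.66%) at CD 4d. The median log2 fold change of all genes tested was -0.02. For 6078 genes, 50.9% of those tested, the libraries of the 2 groups did not overlap, so that lack of overlap in a gene was common. Leaving out 1 library moved the count to 255 without 3M replicate 2 (102 higher, 153 lower), 172 without 3M replicate 3 (71 and 101), 283 without CD 4d replicate 1 (171 and 112) and 109 without CD 4d replicate 2 (54 and 55). The excess of higher over lower calls thus turned round in 3 of the 4 fits, and it did so too when genes had to pass 1 CPM in 8 of the 16 fitted libraries (161 higher, 173 lower). A further limit on the higher calls was that 345 of the genes tested passed the filter only through the CD 4d libraries, and 102 of these were called.

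**Figure D1:**
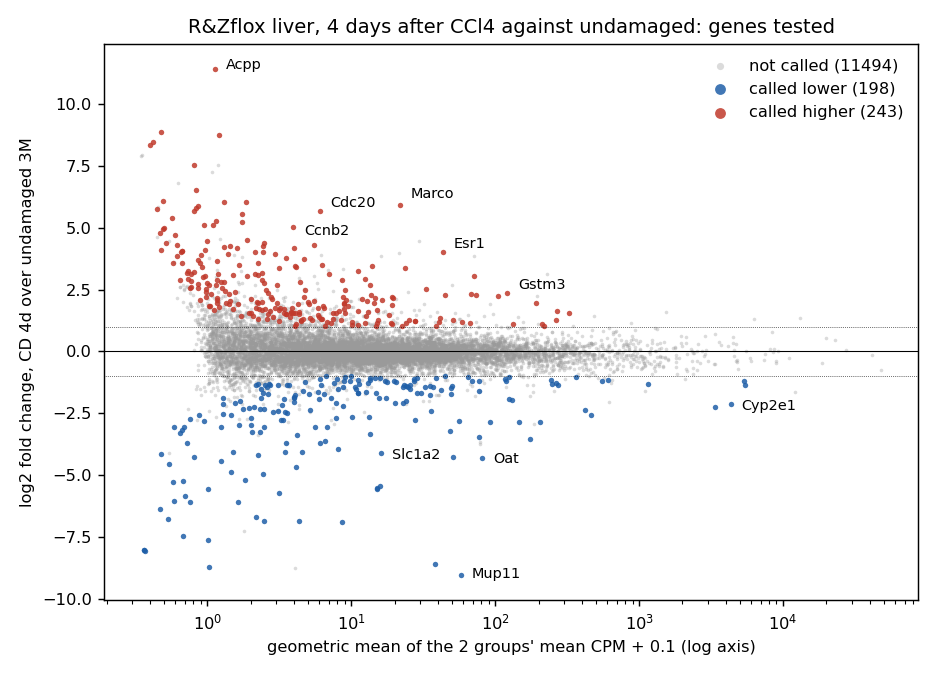
Log2 fold change of each of the 11935 tested genes, CD 4d over undamaged 3M, against the geometric mean of the mean CPM (plus 0.1) of both groups, on a log axis. Red points are the 243 genes called higher and blue points the 198 called lower; dotted lines mark log2 fold changes of 1 and -1, and Mup11 lies lowest and Acpp highest.

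The CD 4d pair also stood apart from every other library in a set of genes that was sought after values had been seen. In these 2 libraries 15 genes lay at least 4-fold below each of the other 14 libraries of the batch and 2 at least 4-fold above. Of the 15 genes 8 were pseudogenes, and Oat, Cyp2c38 and Mogat1, which are described below, were among the rest. The CD 4d pair of mice with the deletion stood apart as well, in 15 genes below and 6 above, 1 of the 15 a pseudogene, whereas no gene did so in the undamaged 3M pair. Of the 179 pseudogenes tested 27 were called lower, 15.1%, against 147 of 11213 protein-coding genes, 1.31%. Pseudogenes of the MUP family, whose genes are described below, had 7 lower calls among 9 tested. The pseudogene Ndufa12-ps, at chr5:130188393-130188888 (mm10, plus strand), was at 0.135 and 0.234 CPM at CD 4d and at 29.2 and 14 CPM in the undamaged libraries. The long non-coding RNA gene AA465934 was at 0.27 and 0.234 CPM against 10 and 8.5 CPM. Both were also above 7 CPM in the 7M, CD 50d and CD 170d libraries of R&Zflox mice, so that the CD 4d pair alone was low. Reads of a pseudogene and its parent gene can be exchanged in counting, and what set these libraries apart was not tested.

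Genes of the G2 and M phases rose across nearly the whole list. Without a filter on low counts 37 of the 42 listed genes were called higher by edgeR, with a median log2 fold change of 3.74, whereas 2.62% of the 29073 genes then tested were called higher and 1.61% lower. Under the filter 30 members were tested and 27 called, but 23 of the 30 had passed through the CD 4d libraries alone, which leaves little room for another outcome. The log2 fold changes of the 30 ran from 0.19 for Cks2, a subunit that binds cyclin-dependent kinases, to 6.06 for Nuf2, a kinetochore gene. Cdc20, an activator of the ubiquitin ligase that starts anaphase, lies at chr4:118432901-118437343 (mm10, minus strand) and was at 0.404 and 1.19 CPM in the undamaged libraries and at 25.7 and 55.2 CPM at CD 4d. Ccnb2, a cyclin of mitosis at chr9:70407689-70421554 on the minus strand, was at 0.673 and 0.617 CPM and at 15.5 and 26.3 CPM. For both genes every CD 4d library was far above every undamaged one. On the log2 scale Cdc20 rose by 5.67 ± 0.56 (adjusted p = 0.000276), which is 50.9-fold, and Ccnb2 by 5.01 ± 0.38 (adjusted p = 7.61e-05), 32.2-fold.

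The promoters of such genes are known for a pair of short elements, the cell cycle genes homology region (CHR, spelled TTTGAA) and the CCAAT box (CCAAT), through which repressing and activating complexes set their timing. Both were searched on both strands from 250 bases before to 50 bases after each start in RefSeq promoters of GRCm38.p6, the assembly of the files' mm10 build; a match of the CHR and one of the CCAAT box could share at most 1 base. The CHR was found in 68.4% of 38 promoters of the 36 listed G2/M genes with an entry and in 17.9% of all 32851 promoters, and the CCAAT box in 73.7% and 37.4%. Of the called G2/M genes considered for printing, 15 had a single promoter holding both. Genes of a chromosome set aside beforehand were left out of this count and choice. The 3 of these 15 genes with the largest increases are printed because they show how closely the elements lie to the start. Capitals mark the CHR and the CCAAT box, the latter written ATTGG where it lies on the opposite strand. A match is a description of the letters, not evidence of use.
Hmmr, chr11:40733388-40733687, minus strand: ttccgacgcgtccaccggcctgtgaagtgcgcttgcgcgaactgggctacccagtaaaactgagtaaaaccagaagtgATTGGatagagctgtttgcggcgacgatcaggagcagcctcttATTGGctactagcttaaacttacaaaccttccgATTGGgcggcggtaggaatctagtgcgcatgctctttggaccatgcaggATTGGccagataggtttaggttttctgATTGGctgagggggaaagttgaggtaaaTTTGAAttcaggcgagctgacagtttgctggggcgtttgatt
Cdc20, chr4:118437294-118437593, minus strand: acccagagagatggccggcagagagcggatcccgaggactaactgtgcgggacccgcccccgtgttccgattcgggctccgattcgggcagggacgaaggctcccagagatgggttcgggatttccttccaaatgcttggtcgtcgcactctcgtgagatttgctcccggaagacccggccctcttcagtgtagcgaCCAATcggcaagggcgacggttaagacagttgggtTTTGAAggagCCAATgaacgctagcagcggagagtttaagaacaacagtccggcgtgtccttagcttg
Ccnb2, chr9:70421505-70421804, minus strand: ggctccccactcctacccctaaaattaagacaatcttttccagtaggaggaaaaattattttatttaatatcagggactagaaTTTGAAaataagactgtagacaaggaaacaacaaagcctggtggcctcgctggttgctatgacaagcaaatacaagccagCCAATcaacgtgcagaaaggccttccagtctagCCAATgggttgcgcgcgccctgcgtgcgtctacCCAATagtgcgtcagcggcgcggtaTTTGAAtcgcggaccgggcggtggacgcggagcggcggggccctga

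In the Hmmr promoter the CHR begins at position 9 after the start and 5 CCAAT boxes lie before the start, all on the opposite strand, the farthest at -172 and the nearest at -20. In Cdc20 the CHR begins at -18, between CCAAT boxes at -53 and -8. The Ccnb2 promoter has a CHR at 5 and a further one at -167, with CCAAT boxes at -87, -54 and -21. Hmmr, whose protein binds hyaluronan and the mitotic spindle, was at 0.0898 and 0.0475 CPM undamaged, 3 reads in all, and at 2.26 and 5.32 CPM at CD 4d.

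The cyclins and kinases of mitosis moved alike. Ccna2, the cyclin of S phase and G2, was at 0.359 and 0.332 CPM undamaged and at 4.93 and 11.1 CPM at CD 4d (log2 fold change 4.51 ± 0.51, adjusted p = 0.000769). Ccnb1, the main mitotic cyclin, was at 0.224 and 0.0475 CPM and at 2.91 and 8.03 CPM (5.26 ± 0.81, adjusted p = 0.00587). Cdk1, their partner kinase, was at 1.17 and 1.23 CPM and at 8.72 and 17.1 CPM (3.42 ± 0.51, adjusted p = 0.00449). In each of these genes CD 4d replicate 2 was above replicate 1, as it was in 28 of the 30 tested members. Mki67, which encodes the proliferation antigen Ki67, was at 0.449 and 0.902 CPM undamaged and at 3.75 and 7.93 CPM at CD 4d (3.11 ± 0.67, adjusted p = 0.0351). Knstrn and Cdkn3, a spindle protein and a phosphatase of cyclin-dependent kinases named for the size of their rise, reached 7.81 and 11.7 CPM and 6.35 and 11.6 CPM, from below 0.8 CPM in each undamaged library. The calls of Cdc20, Ccnb2, Ccna2, Ccnb1, Cdk1, Knstrn and Cdkn3 held when any of the 4 libraries was left out, with adjusted p at most 0.00498, 0.00163, 0.0164, 0.0716, 0.0563, 0.0161 and 0.027. That of Mki67 was lost without either undamaged library or without CD 4d replicate 2 (adjusted p up to 0.266). The G2/M list had 17 higher calls without 3M replicate 2, 13 without 3M replicate 3, 23 without CD 4d replicate 1 and 13 without CD 4d replicate 2, with medians of 3.45 to 4.26. In whole liver a change in the number of cells of a type and a change in RNA per cell cannot be told apart.

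Fewer genes of the G1/S transition passed the test, 8 of the 29 tested, all higher, beside 2.04% called higher over all genes tested. Of the 29 genes 4 had passed the filter through the CD 4d libraries alone. The median of the list was 0.68, or 0.28 without CD 4d replicate 2. Ccnd1, the cyclin that carries growth signals into the cycle and lies at chr7:144929931-144939831 on the minus strand, was at 4.35 and 4.46 CPM undamaged and at 14.9 and 22.8 CPM at CD 4d. It rose by 2.09 ± 0.30 (log2, adjusted p = 0.00314), and leaving out any library kept the call (adjusted p at most 0.0389). Mcm6, a subunit of the replicative helicase, was at 1.08 and 0.332 CPM and at 8.99 and 12.7 CPM (3.93 ± 0.60, adjusted p = 0.00528, at most 0.0575 with 1 library left out). The helicase subunits Mcm2 and Mcm3 had log2 fold changes of 1.97 (adjusted p = 0.0712) and 1.53 (adjusted p = 0.0644), and further called members were E2f1, Gins2 and Lig1. Each of these 5 calls was lost in at least 3 of the 4 fits that left out 1 library, with adjusted p of up to 0.416. The sliding clamp gene Pcna was at 7.54 and 7.4 CPM undamaged and at 5.81 and 7.29 CPM at CD 4d (-0.19 ± 0.32, adjusted p = 0.827), and the nucleotide reductase subunit gene Rrm2 was at 5.52 and 5.84 CPM and at 6.83 and 7.19 CPM (0.30 ± 0.40, adjusted p = 0.766). The list had 2 higher calls without 3M replicate 2, 3M replicate 3 or CD 4d replicate 2, and 5 without CD 4d replicate 1.

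Among 21 tested of 26 genes of the p53 response and the cell cycle inhibitors, 4 were called higher and none lower by edgeR, with a median of 0.35. Over all genes tested the shares were 2.04% and 1.66%. Of the 21 genes 2, Phlda3 among them, had passed the filter through the CD 4d libraries alone, which leaves these little room for another outcome. In the list 1 gene was lower at an unadjusted p below 0.05, and DESeq2 called 4 higher and 1 lower. Phlda3, a p53 target that restrains AKT, was at 0.718 and 0.475 CPM undamaged and at 8.18 and 6.02 CPM at CD 4d (3.56 ± 0.32, adjusted p = 0.000172, at most 0.00342 with 1 library left out). Btg2, an antiproliferative p53 target, was at 4.17 and 5.55 CPM and at 12.6 and 19.3 CPM (1.71 ± 0.26, adjusted p = 0.00587, at most 0.0766). The other calls, of the death receptor gene Eda2r (2.87, adjusted p = 0.05) and the CDK4 and CDK6 inhibitor gene Cdkn2c (1.20, adjusted p = 0.0898), were lost without any 1 of the 4 libraries (up to 0.239 and 0.426). Cdkn1a, which encodes the inhibitor p21, was at 6.78 and 12.6 CPM and at 28.6 and 31.5 CPM, groups that did not overlap, but missed the threshold (1.63 ± 0.67, adjusted p = 0.248). Lack of overlap held for 50.9% of all genes tested.

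**Figure D2:**
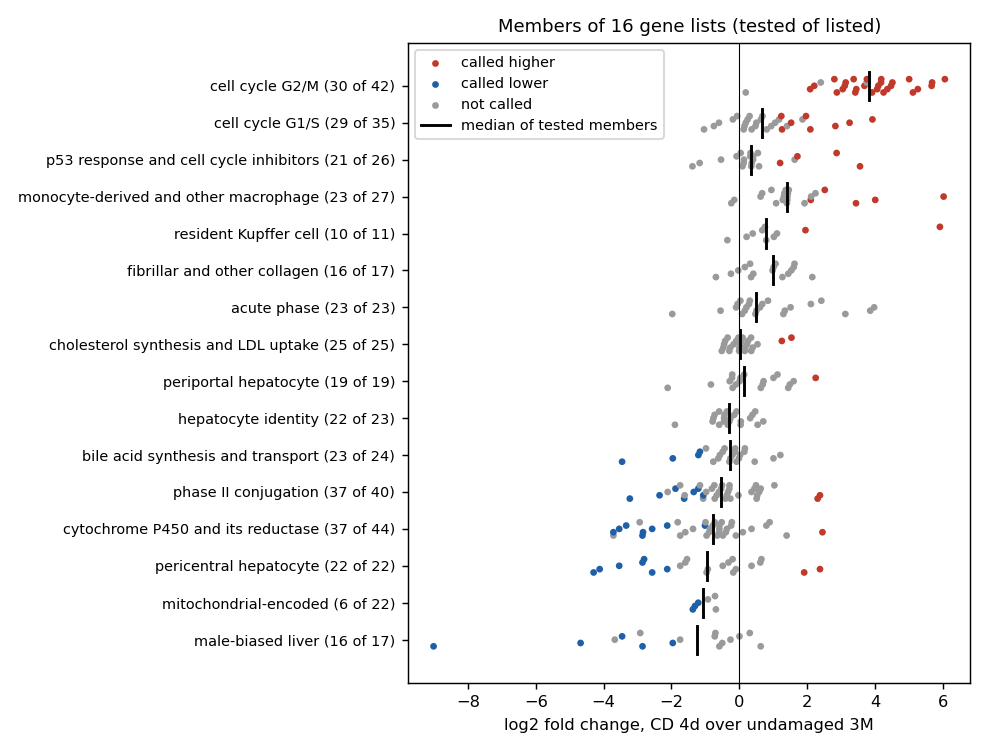
Log2 fold change, CD 4d over undamaged 3M, of the tested members of 16 gene lists, 1 point per gene, with the median of the tested members as a black bar. The G2/M points lie between 0.19 and 6.06, whereas the medians of the pericentral (-0.95), mitochondrial-encoded (-1.07) and male-biased (-1.23) lists lie below -0.9.

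Pericentral hepatocyte genes fell, but not all of them. Of the 22 listed genes, all tested, 7 were called lower and 2 higher, beside 1.66% lower and 2.04% higher over all genes tested. The median was -0.95, with a range of -1.31 to -0.57 when 1 library was left out. Cyp2e1, the enzyme that activates CCl4, at chr7:140763819-140774990 on the plus strand, was at 8584 and 9530 CPM in the undamaged libraries and at 2329 and 1822 CPM at CD 4d. The gene fell by 2.13 ± 0.31 on the log2 scale (adjusted p = 0.00359), to a level 4.36-fold lower. Oat, the ornithine aminotransferase gene of pericentral cells at chr7:132557475-132576398 on the minus strand, was at 252 and 464 CPM and at 17.2 and 19.2 CPM (-4.30 ± 0.47, adjusted p = 0.000662). Slc1a2, the gene of the glutamate transporter of the same cells, was at 65.4 and 66.6 CPM and at 3.72 and 3.88 CPM (-4.12 ± 0.38, adjusted p = 0.000206). In all 3 genes the CD 4d libraries lay close to each other and far below the undamaged ones. Oat was at 838 CPM in the single CD 50d library and at 598 and 554 CPM in the CD 170d libraries of R&Zflox mice, and Slc1a2 at 127 CPM and at 129 and 84.3 CPM.

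The remaining lower calls of the list were Nr1i3, the gene of the drug-sensing receptor CAR, at 151 and 145 CPM undamaged and 24.5 and 17.7 CPM at CD 4d (-2.81 ± 0.32, adjusted p = 0.000765), and the P450 genes Cyp2c54 (-3.54), Cyp2c50 (-2.57) and Cyp2c37 (-2.86). The Cyp2c genes are near-identical copies on chromosome 19 between which reads can be split wrongly, so that single values are uncertain. Glul, the glutamine synthetase gene of the innermost cells, was at 107 and 110 CPM and at 54.3 and 20.2 CPM, lower in both libraries, but missed the threshold (-1.54 ± 0.45, adjusted p = 0.106). It was called lower in 6 of 13 alternative fits. Cyp1a2 was at 566 and 821 CPM and at 491 and 220 CPM (-0.96 ± 0.41, adjusted p = 0.261). The higher members were Gstm3, a glutathione transferase gene, at 46.2 and 60 CPM and at 256 and 296 CPM (2.38 ± 0.39, adjusted p = 0.00859), and Slc1a4, a neutral amino acid transporter gene, at 3.64 and 5.36 CPM and at 16 and 17.9 CPM (1.91 ± 0.22, adjusted p = 0.000864). With any 1 library left out the calls of Cyp2e1, Oat, Slc1a2, Nr1i3, Cyp2c54, Cyp2c50, Gstm3 and Slc1a4 held (adjusted p at most 0.0814, 0.0149, 0.00657, 0.0189, 0.0494, 0.0804, 0.0849 and 0.0121), and that of Cyp2c37 was lost without CD 4d replicate 2 (0.105).

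Periportal genes had a median of 0.14, which ran from -0.02 without 3M replicate 2 to 0.79 without 3M replicate 3, and their calls depended on the fit. Without the filter on low counts edgeR called 6 higher and 1 lower, by the likelihood ratio test 3 and 1, and with the 4 compared libraries alone 4 and 0. DESeq2 called 3 higher and 0 lower, and 5 were higher and 2 lower at an unadjusted p below 0.05. The quasi-likelihood test with all 16 libraries called 1 of 19 tested, Aldh1b1, a mitochondrial aldehyde dehydrogenase gene (2.25 ± 0.58, adjusted p = 0.0699). It was at 21.1 and 74.1 CPM undamaged and at 216 and 237 CPM at CD 4d, and its call was lost without 3M replicate 2 or either CD 4d replicate (adjusted p up to 0.306). Cyp2f2 was at 2963 and 2933 CPM and at 3044 and 2452 CPM, with overlapping groups. Hal, which degrades histidine, was at 287 and 353 CPM and at 525 and 468 CPM, and Sds, which degrades serine, at 128 and 140 CPM and at 299 and 285 CPM. Both were higher in each CD 4d library without passing the test (0.63, adjusted p = 0.513, and 1.13, adjusted p = 0.34). General hepatocyte genes were present throughout: none of 22 tested of 23 was called by edgeR, 3 were lower at an unadjusted p below 0.05, DESeq2 called 1 lower, and the median was -0.32. Alb was at 51741 and 72519 CPM undamaged and at 35045 and 39936 CPM at CD 4d (-0.73 ± 0.39, adjusted p = 0.378), and Hnf4a, a master regulator of the hepatocyte, at 169 and 180 CPM and at 138 and 133 CPM (-0.37 ± 0.22, adjusted p = 0.437). The floxed Rnf43 was at 10.7 and 8.31 CPM and at 10.2 and 4.92 CPM, and Znrf3 at 8.71 and 6.46 CPM and at 4.93 and 4.45 CPM, both short of the threshold (-0.33, adjusted p = 0.62, and -0.69, adjusted p = 0.136).

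The fall reached detoxifying enzymes outside the pericentral list. Of 37 tested of 44 genes of cytochromes P450 and their reductase, 8 were called lower and 1 higher, with a median of -0.78, and 13 lower and 3 higher without the filter on low counts. The shares over all genes tested were 1.66% lower and 2.04% higher, and 1.61% and 2.62% without the filter. Beside those named above, the lower calls were Cyp2c38, at 32.7 and 52.5 CPM undamaged and 3.41 and 5.02 CPM at CD 4d (-3.34 ± 0.42, adjusted p = 0.00137), Cyp2c67, at 442 and 343 CPM and 52.8 and 56.8 CPM (-2.84 ± 0.33, adjusted p = 0.000864), Cyp2c69 and Cyp2j5. Cyp3a44 was called higher from 0.628 and 0.38 CPM to 1.86 and 3.71 CPM. This gene had passed the filter through the CD 4d libraries alone. With any 1 library left out the calls of Cyp2c38 and Cyp2c67 held (at most 0.0227 and 0.0204), and those of Cyp2c69, Cyp2j5 and Cyp3a44 were lost in at least 3 of the 4 fits (up to 0.293, 0.264 and 0.461). Of the enzymes of conjugation, 37 tested of 40, 7 were lower and 2 higher, with a median of -0.54, and 13 lower and 4 higher without the filter. Sult2a8, a hepatic sulfotransferase gene, was at 1020 and 889 CPM and at 267 and 107 CPM (-2.35 ± 0.41, adjusted p = 0.0129, at most 0.0952 with 1 library left out). Ugt1a9, a glucuronosyltransferase gene that shares exons with its neighbours, was at 112 and 183 CPM and at 14.7 and 16.8 CPM (-3.23 ± 0.55, adjusted p = 0.0107), and this call was lost without CD 4d replicate 2 (0.118). The other lower calls were Gstt1, Ugt2b1, Ugt2b38, Ugt3a1 and Sult1b1, and Nnmt, the nicotinamide methyltransferase gene, joined Gstm3 among the higher ones, at 24.5 and 35.9 CPM and at 173 and 127 CPM (2.31 ± 0.56, adjusted p = 0.0546). These 6 calls were each lost in at least 3 of the 4 fits without 1 library, with adjusted p up to 0.547, and without CD 4d replicate 2 the whole conjugation list had 1 lower and 1 higher call.

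Bile acid genes moved in part. Of 23 tested of 24, 4 were called lower and none higher by edgeR and by DESeq2, and 8 lower and 0 higher at an unadjusted p below 0.05. Among all genes tested edgeR called 1.66% lower and 2.04% higher. The median of the list was -0.26, or -0.46 without 3M replicate 2 and -0.10 without 3M replicate 3. Cyp7b1, the oxysterol hydroxylase of the alternative synthesis pathway, was at 288 and 223 CPM undamaged and at 40.6 and 5.95 CPM at CD 4d (-3.46 ± 0.72, adjusted p = 0.0314), and with 1 library left out its adjusted p was at most 0.0976. Slc10a1, the main bile acid uptake transporter gene, was at 916 and 890 CPM and at 464 and 343 CPM (-1.16 ± 0.27, adjusted p = 0.0515). The organic anion transporter gene Slco1a1 was at 279 and 240 CPM and at 83.8 and 49.3 CPM (-1.96 ± 0.48, adjusted p = 0.0558), and the efflux pump gene Abcc3 at 108 and 127 CPM and at 53 and 48.4 CPM (-1.21 ± 0.22, adjusted p = 0.0167). In all 4 genes both CD 4d libraries lay below both undamaged ones, and the groups did not overlap, in either direction, for 50.9% of all genes tested. The calls of Slc10a1 and Slco1a1 were lost without any 1 of the 4 libraries (up to 0.419 and 0.422), and that of Abcc3 without 3M replicate 3 or CD 4d replicate 2 (up to 0.178). Cyp7a1, the rate-limiting enzyme of bile acid synthesis, was at 65.7 and 43.6 CPM and at 120 and 99.8 CPM (1.01 ± 0.62, adjusted p = 0.459).

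Among the deepest falls were those of major urinary protein genes, a family taken as a group after its values had been seen. Of 22 Mup genes in the files 19 were tested, and 14 were called lower and none higher by edgeR, with a median of -3.16. The shares over all genes tested were 1.66% lower and 2.04% higher. DESeq2 called 16 Mup genes lower and 0 higher, and 0 were higher at an unadjusted p below 0.05. Mup11, at chr4:60658466-60662432 on the minus strand, was at 1594 and 973 CPM undamaged and at 3.68 and 1.27 CPM at CD 4d (-9.01 ± 0.88, adjusted p = 0.000273). Mup17 was at 300 and 1156 CPM and at 3.18 and 0.636 CPM (-8.57 ± 1.07, adjusted p = 0.00129). Both calls held with any 1 library left out (adjusted p at most 0.00657 and 0.0221). Members with the highest counts moved less: Mup3 was at 23184 and 19530 CPM and at 9936 and 3934 CPM (-1.62 ± 0.49, adjusted p = 0.117), and Mup20 at 2472 and 2552 CPM and at 3228 and 1810 CPM, with overlapping groups. Summed over the family the level was 28643 and 25420 CPM undamaged and 13339 and 5816 CPM at CD 4d. These genes are near-identical copies, so that the split of reads among them is uncertain and the sum is less so. In later R&Zflox libraries Mup11 was at 454 CPM (CD 50d) and at 199 and 236 CPM (CD 170d), and it was at 1858 CPM in the undamaged 7M library.

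**Figure D3:**
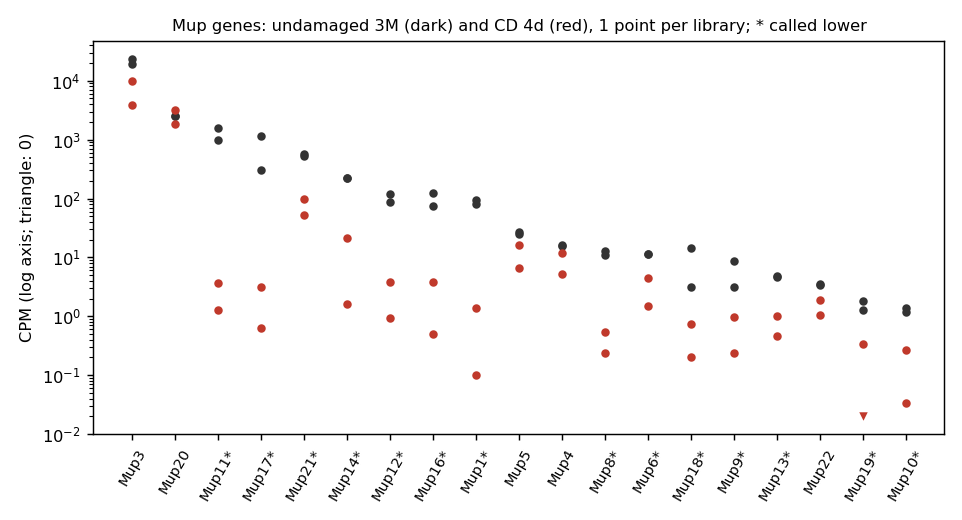
CPM of the 19 tested Mup genes on a log axis, ordered by undamaged level, with 1 point per library, dark for undamaged 3M and red for CD 4d; an asterisk marks a gene called lower and a triangle a count of 0. For 18 of the 19 genes both CD 4d libraries lie below both undamaged ones, the exception being Mup20. Over all genes tested the groups did not overlap, in either direction, for 50.9%.

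The other male-biased genes gave a mixed picture. Of 16 tested of 17 in the male-biased list, which holds 4 of the Mup genes, 5 were called lower, beside 1.66% of all genes tested. The median of the list was -1.23 and ran from -2.30 without CD 4d replicate 1 to -0.88 without 3M replicate 3. Susd4, a complement regulator gene with male-biased expression in liver, was at 14 and 25.1 CPM and at 1.08 and 0.435 CPM (-4.68 ± 0.47, adjusted p = 0.000311, at most 0.00657 with 1 library left out), and the remaining lower calls were Mup11, Mup21, Slco1a1 and Cyp7b1. Mup21 lost its call without CD 4d replicate 2 (0.197) and Slco1a1 without any 1 library (up to 0.422). Hsd3b5, a male-specific steroid dehydrogenase gene, was at 309 and 250 CPM and at 39.5 and 4.42 CPM and Elovl3, a fatty acid elongase gene, at 324 and 693 CPM and at 124 and 9.8 CPM, with CD 4d replicate 2 far below replicate 1 in both, and neither passed the test (adjusted p = 0.119 and 0.28). Of the 13 alternative fits, however, 7 called Hsd3b5 lower and 2 called Elovl3 lower. Of 7 tested of 16 female-biased genes Cyp3a44 alone was called, after passing the filter only through the CD 4d libraries. However, 5 of the 7 had negative fold changes. The median was -0.21, from -1.90 without CD 4d replicate 2 to 0.45 without CD 4d replicate 1. Without the filter on low counts 2 female-biased genes were called higher and 4 lower. Cyp2b9, a P450 gene with female-biased expression, was at 7.63 and 33.8 CPM undamaged and at 0.372 and 5.02 CPM at CD 4d, lower in both libraries (-2.94 ± 1.18, adjusted p = 0.238). Esr1 was looked up after the results had been seen. This estrogen receptor gene, at chr10:4611989-5005633 on the plus strand, was at 11.9 and 9.54 CPM undamaged and at 151 and 197 CPM at CD 4d, 16.2-fold higher (4.02 ± 0.46, adjusted p = 0.000769). The call held with any 1 library left out (at most 0.0172). Esr1 was at 11.0 CPM in the CD 50d library and at 14.6 and 18.7 CPM in the CD 170d libraries of R&Zflox mice.

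**Figure D4:**
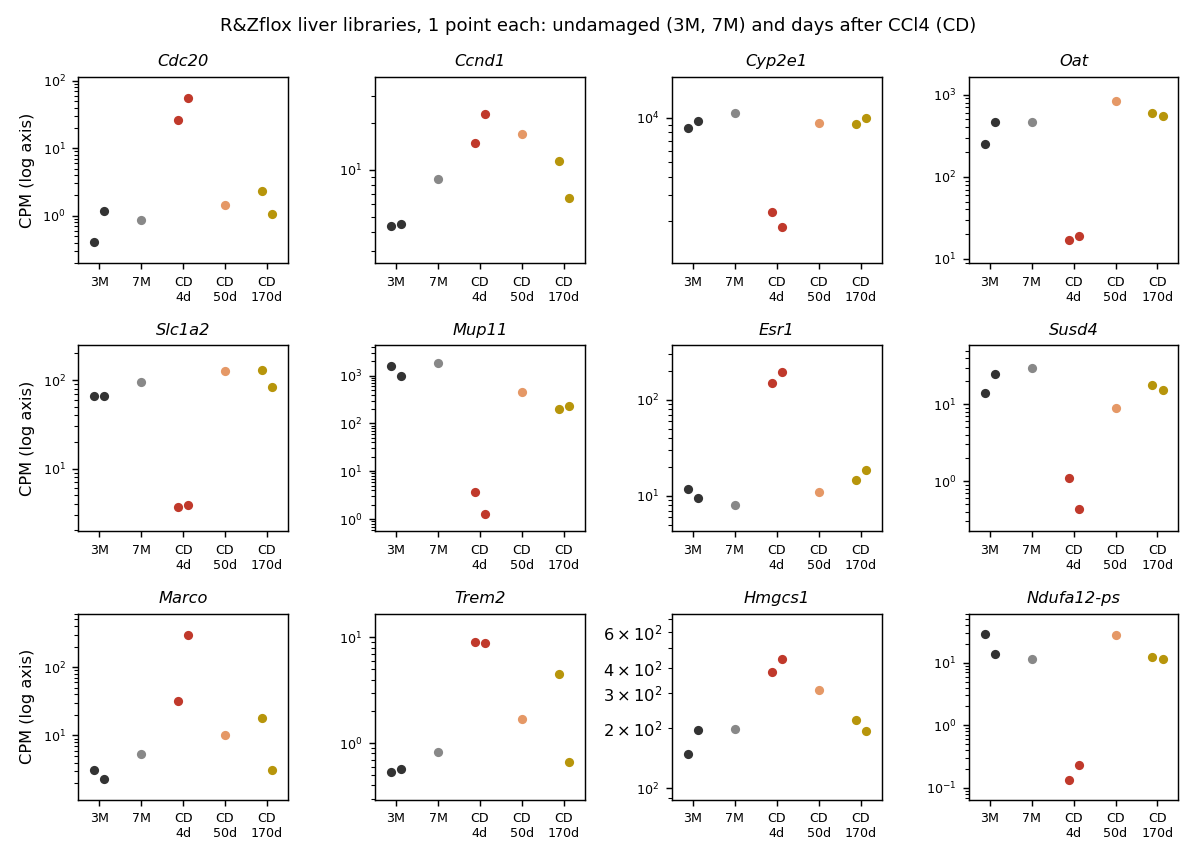
CPM of 12 genes on log axes in each R&Zflox library of the batch, 1 point per library, for undamaged livers at 3M and 7M and for livers 4, 50 and 170 days after CCl4. Cdc20 and Esr1 stand highest and Cyp2e1, Oat, Slc1a2, Mup11, Susd4 and Ndufa12-ps lowest in the CD 4d pair; Cdc20 was 1.43 CPM and Cyp2e1 9171 CPM in the CD 50d library.

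Some macrophage genes rose, among them genes known from lipid-laden and phagocytic macrophages. Of 23 tested of 27 genes of monocyte-derived and other macrophages 5 were called higher and none lower by edgeR, and the median was 1.42, or 0.90 without CD 4d replicate 2. At an unadjusted p below 0.05 there were 17 higher and 0 lower, and DESeq2 called 15 higher and 0 lower. Of all genes tested edgeR called 2.04% higher and 1.66% lower. Of the 23 genes 3, Gpnmb and Trem2 among them, had passed the filter through the CD 4d libraries alone, which leaves these little room for another outcome. Gpnmb, a lysosomal glycoprotein gene of such macrophages, was at 0.135 and 0.0949 CPM undamaged and at 7.91 and 7.69 CPM at CD 4d (6.02 ± 1.32, adjusted p = 0.0386). Trem2, a lipid-sensing receptor gene, was at 0.539 and 0.57 CPM and at 9.13 and 8.83 CPM (4.01 ± 1.00, adjusted p = 0.0614), and Cd63, an endosomal tetraspanin gene, at 4.49 and 3.8 CPM and at 44.8 and 45.3 CPM (3.44 ± 0.58, adjusted p = 0.00996). In these 3 genes the replicates of each group lay close together and the groups far apart. Lpl and Adgre1, which encode lipoprotein lipase and the F4/80 antigen, had log2 fold changes of 2.52 (adjusted p = 0.0371) and 2.11 (adjusted p = 0.0749), and CD 4d replicate 2 was well above replicate 1, at 113 against 43.6 CPM for Lpl and 35.4 against 13.3 CPM for Adgre1. The lysozyme gene Lyz2 was at 103 and 76.7 CPM and at 201 and 653 CPM (2.25 ± 0.67, adjusted p = 0.111), and Cd68 at 13.1 and 14.1 CPM and at 20.1 and 37.7 CPM (1.09 ± 0.46, adjusted p = 0.261). The count of 5 became 3 without 3M replicate 2, 0 without 3M replicate 3, 9 without CD 4d replicate 1 and 1 without CD 4d replicate 2, and 19 of 27 were called without the filter on low counts. Singly, Cd63 lost its call without 3M replicate 3 (0.105), Lpl without that library or CD 4d replicate 2 (up to 0.324), Gpnmb and Adgre1 without either undamaged library or CD 4d replicate 2 (up to 0.226 and 0.569), and Trem2 without any (up to 0.274).

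Of the resident Kupffer cell genes 2 of 10 tested of 11 were called, both higher, beside 2.04% called higher over all genes tested. The median of the list was 0.77. Marco, a scavenger receptor gene, was at 3.14 and 2.33 CPM undamaged and at 32.1 and 299 CPM at CD 4d (5.91 ± 1.08, adjusted p = 0.017), so that most of its mean came from replicate 2. Cd5l, which encodes a secreted macrophage protein, was at 109 and 85.8 CPM and at 229 and 522 CPM (1.95 ± 0.55, adjusted p = 0.0919). Both calls were lost without either undamaged library or CD 4d replicate 2 (up to 0.15 and 0.575). The defining markers Clec4f, at 127 and 113 CPM and at 206 and 211 CPM, and Vsig4, at 33.4 and 35.2 CPM and at 54.8 and 93.3 CPM, were higher in both CD 4d libraries without passing the test (adjusted p = 0.422 and 0.204). For neutrophils 3 of 11 genes reached the filter, and none was called by edgeR, against 3 higher at an unadjusted p below 0.05 and 1 by DESeq2. Other fits did call them: edgeR called all 3 with the likelihood ratio test or with the 4 compared libraries alone, 7 of 11 without the filter, and none with any 1 of the 4 libraries left out. S100a8 was at 3.32 and 2.09 CPM and at 22.3 and 32.1 CPM and S100a9 at 2.06 and 1.66 CPM and at 13.8 and 16.6 CPM (adjusted p = 0.171 and 0.197). Lymphocyte genes were scarce. Of the 5 T and NK cell genes tested 3, Nkg7 among them, had passed the filter through the CD 4d libraries alone, which leaves these little room for another outcome. Of 5 tested of 15 T and NK cell genes the cytotoxic granule gene Nkg7 was called, from 0.943 and 0.854 CPM to 3.01 and 4.92 CPM (2.13 ± 0.47, adjusted p = 0.0396), and of 12 tested chemokine and cytokine genes Ccl5, from 1.53 and 0.57 CPM to 4.12 and 4.22 CPM (1.98 ± 0.54, adjusted p = 0.0863), each lost in 3 fits without 1 library (up to 0.293 and 0.364). Of 20 interferon-stimulated genes Oas1a alone was called (1.5, adjusted p = 0.036), and leaving out any 1 library lost it (up to 0.203).

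Whether genes of the fibrotic programme passed the test at 4 days depended on the fit. None of 16 collagen, 20 other matrix, 17 stellate cell and 12 metalloproteinase and inhibitor genes tested was called by edgeR with all 16 libraries, with medians of 1.00, 0.32, 0.28 and 0.48. At an unadjusted p below 0.05 the lists held 3, 2, 3 and 3 higher members and 1 lower, of the other matrix genes, and DESeq2 called 2 higher in each and 0 lower. Without the filter on low counts edgeR called 8 collagen, 3 other matrix, 5 stellate cell and 4 metalloproteinase genes higher, and with the 4 compared libraries alone 6, 1, 3 and 2. With 1 of the 4 libraries left out the single call was of an other matrix gene, without 3M replicate 2. The median of the stellate list fell to 0.02 and that of the other matrix list to 0.11 without CD 4d replicate 2. The collagen genes nonetheless lay mostly on the higher side: 13 of the 16 had positive fold changes, while the median over all genes tested was -0.02. Col1a1 was at 2.15 and 0.902 CPM undamaged and at 5.0 and 8.66 CPM at CD 4d (2.15 ± 0.78, adjusted p = 0.19), Col1a2 at 6.73 and 4.65 CPM and at 13.2 and 19.8 CPM (1.53 ± 0.58, adjusted p = 0.204), and Col3a1 at 16.2 and 9.07 CPM and at 26.9 and 49.9 CPM (1.6 ± 0.59, adjusted p = 0.193). In all 3 genes both CD 4d libraries were above both undamaged ones, but the differences did not pass the test against the spread estimated over the batch. Lack of overlap, in either direction, was found for 50.9% of all genes tested. Over the alternatives the adjusted p of Col1a1 ran from 2.2e-09 without the filter to 0.648 without CD 4d replicate 2, and Col1a1 was called in 5 of 13 and Col1a2 and Col3a1 in 6 of 13. Acta2, the actin gene of myofibroblasts, was at 2.96 and 1.76 CPM and at 2.16 and 5.32 CPM, with overlapping groups. Timp1, an inhibitor of matrix breakdown, was at 0.224 and 0.19 CPM and at 2.03 and 1.81 CPM (3.18 ± 1.26, adjusted p = 0.23). Acute phase genes were not called either, 0 of 23 by edgeR, with a median of 0.50, against 5 higher and 2 lower at an unadjusted p below 0.05 and 3 higher and 1 lower by DESeq2. The likelihood ratio test called 4 higher and 1 lower, the fit of the 4 compared libraries alone 4 higher and edgeR without the filter 8 higher and 1 lower. Saa1 was at 72.5 and 82.5 CPM and at 250 and 1105 CPM, and its adjusted p was 0.309 and ran up to 0.815 without CD 4d replicate 2.

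Each list of lipid, sugar and stress genes held 0 to 3 calls, beside 3.7% called over all genes tested. None was called by edgeR with all 16 libraries or by DESeq2 in 3 of these lists. They held 5 metallothionein, 11 hydrogen peroxide and superoxide and 10 immediate early genes tested. Of 25 genes of cholesterol synthesis and LDL uptake 2 were called higher, with a median of 0.03. Hmgcs1, which encodes an early enzyme of the pathway, was at 148 and 195 CPM undamaged and at 381 and 439 CPM at CD 4d (1.25 ± 0.34, adjusted p = 0.078). Of 22 glucose genes 1 was called higher and 1 lower, and the higher was Igfbp1, which encodes a liver-secreted binding protein of insulin-like growth factors and was at 19.6 and 29.8 CPM and at 178 and 227 CPM (3.03 ± 0.68, adjusted p = 0.0404). The groups did not overlap in either gene, nor did they for 50.9% of all genes tested. Of 29 genes of fatty acid synthesis and triglyceride Scd2 was called higher (2.92) and Mogat1 lower (-4.43). Among 26 genes of fatty acid oxidation Vnn1 was called lower (-2.09), and among 20 stress response genes, 17 of them negative, Dnajb9 (-1.44). Among 24 NRF2 target genes G6pdx was called higher (1.49) and Abcc3 lower. Among 4 mid-lobular genes Hamp2, the less abundant of 2 hepcidin genes, was called higher (2.30). The more abundant hepcidin gene Hamp was not called and was lower in both CD 4d libraries. Its levels were 1831 and 1590 CPM undamaged and 1000 and 958 CPM at CD 4d (-0.81 ± 0.29, adjusted p = 0.181). Among 21 growth factor genes Igfbp1, Fst (1.90) and Hbegf (2.16) were called higher, although 16 of the 21 were negative. Of 19 clock genes Per2 was lower (-2.31), with a median of -0.85 for the list and -0.44 without 3M replicate 2. Without the filter 10 clock genes were called lower. The time of day of collection is not given in the sources used here. Of 24 genes of the cytoskeleton and migration 22 were positive, with a median of 0.82. Of these Tubb6 (1.26) and S100a11 (1.58) were called higher, whereas 12 were higher at an unadjusted p below 0.05, 7 by DESeq2 and 9 by edgeR without the filter, and 0 were lower in each case. Of 20 endothelial genes Lyve1 was called higher (2.48). Each of the called genes named in this paragraph lost its call in at least 2 of the 4 fits without 1 library, with adjusted p between 0.173 for Vnn1 and 0.509 for Scd2.

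Transcripts of the mitochondrial genome made up 3.22% and 3.21% of the reads in the undamaged libraries and 1.86% and 1.58% at CD 4d. Of 6 tested mitochondrial-encoded genes 3 were called lower, beside 1.66% of all genes tested, and all 6 were negative, with a median of -1.07. CYTB, a subunit of respiratory complex III, was at 8130 and 8162 CPM and at 3795 and 3244 CPM (-1.21 ± 0.29, adjusted p = 0.0553), and COX1 and ND5 were lower by log2 fold changes of -1.37 and -1.31 (adjusted p = 0.0863 and 0.0931). All 3 calls were lost in at least 3 of the 4 fits without 1 library (up to 0.549). In the other R&Zflox libraries of the batch the mitochondrial share was between 1.97% and 2.91%. Of 12 housekeeping genes Gusb alone was called (1.02, adjusted p = 0.0414, lost without any 1 library, up to 0.272), and of the pancreas list Cela1 alone (-1.70 ± 0.33, adjusted p = 0.0235, lost without CD 4d replicate 2 at 0.261), at 92.9 and 84.6 CPM and at 31.5 and 23.0 CPM, whereas the defining pancreatic transcripts Prss2 and Cpa1 did not pass the filter.

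In the libraries labelled as 170 days after CCl4, against the same undamaged libraries, 1 of 11935 genes was called, 0.00838%. It was Acpp, an acid phosphatase gene. At an unadjusted p below 0.05 there were 631 genes, and DESeq2 called 55. The filter had used the CD 4d and 3M libraries only, so that genes that failed it there could not be called here. Without the filter edgeR called 556 genes, 409 higher and 147 lower. The medians of the tested members were -0.02 for pericentral, -0.59 for male-biased and -0.07 for macrophage genes, set beside -0.95, -1.23 and 1.42 at CD 4d. Of the 23 macrophage genes 3 had passed the filter through the CD 4d libraries alone. Cdc20 was at 2.29 and 1.07 CPM, Cyp2e1 at 9154 and 9970 CPM and Gpnmb at 3.78 and 0.664 CPM. CD 170d replicate 1 stood apart in the acute phase, with Saa1 at 16497 CPM against 55.2 CPM in replicate 2. Without CD 170d replicate 2 the count was 167, without 3M replicate 2 it was 0 and without 3M replicate 3 it was 3. Because both comparisons share their undamaged libraries, their values are set side by side only.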

How the data were processed

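RNA of whole liver was made into Smart-Seq2 libraries and sequenced. The deposited values are whole read counts per gene: per the labels, the file headers and the study's methods, the authors trimmed reads (Sickle in the methods, Trim Galore in the submitters' processing notes), aligned them to mm10 with STAR 2.5.0a and counted exonic reads without strand in featureCounts 1.5.0-p3 (the version in the file headers and processing notes; the methods name a later one). Antisense and overlapping genes cannot be told apart. The tables hold gene rows only.

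The 16 first-batch libraries with a labelled condition were fitted together, 1 mean for each of 9 groups, in edgeR 4.0.16 (R 4.3.3; TMM scaling, quasi-likelihood test, two-sided, 7 residual degrees of freedom); genes above 1 CPM in at least 2 of the 4 compared libraries were tested, and calls needed an adjusted p under 0.1 with a log2 change larger than 1 in size, after the study's criteria. Alternatives were another scaling, other filters, DESeq2 1.42.0, the likelihood ratio test, other sets of libraries and each library left out. The scripts were tested on simulated data. Members and gene lists were chosen with earlier results of these data known. Genes were named as the 12 largest changes a direction among called, non-overlapping genes above 5 CPM, as preset or leading called members of lists, and as Rnf43 and Znrf3; other called members complete a list's count, and genes outside this rule were chosen after their values were seen, as were Hmmr, Nuf2 and Cks2 for their place in the G2/M list. For 7 samples the labels give no group, and they were not used here. Some members counted in the lists are not reported here by name.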

Additional observations from a re-analysis of the deposited data

How the results depend on the processing

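Against the 441 genes called at CD 4d, 1231 were called without a filter (762 higher, 469 lower), 723 by DESeq2, 770 by edgeR's likelihood ratio test, 691 with the 3M and 7M libraries together as undamaged, 263 with Wild-type libraries alone and 252 at an adjusted p below 0.05; leaving out 1 library gave 109 to 574, the highest in a fit without WT CD 170d replicate 1, chosen after seeing the data. DESeq2 size factors gave 436 and left the share of higher calls within 10 percentage points. The lone library of an arm was then assumed to vary like the other groups. At CD 170d the count of 1 became 556 without a filter and 55 by DESeq2, and 0 to 167 with 1 library left out. Of 93 called genes in the text 35 kept call and direction under every alternative, 58 lost the call in 1 or more and 0 reversed, and of 31 genes not called 18 were called in 1 or more. Without the filter 36 of 52 gene lists had over 1.5 times as many calls and 0 had fewer. Among genes not called the sign turned with 1 library left out, over ranges of -0.13 to 1.17 for Acta2, -0.27 to 0.046 for Cyp2f2, -0.95 to 0.11 for Rnf43, -0.15 to 0.64 for Cks2 and -0.47 to 0.36 for Mup20, which was at -0.24 with 3M and 7M together. Apart from settings that test more genes or fit fewer libraries, the cause was not tested. No paired analysis was possible because the groups share only replicate number 2. With 2 libraries a side, genes near 1 CPM and genes that vary between mice were the least certain.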

Other observations

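The following genes were chosen after their values were seen. Acpp, an acid phosphatase gene, had 493 and 255 reads in the CD 4d libraries and 0 in both undamaged 3M libraries, at least 198-fold higher against 3 reads over the undamaged group. It also had 0 reads in the undamaged 7M library, 99 reads at CD 50d and 76 and 67 reads at CD 170d in R&Zflox mice, and 10 and 13 reads in the CD 4d libraries of mice with the deletion. All R&Zflox libraries taken after CCl4 thus held its reads and the 3 undamaged ones held none. Sytl5, a gene of vesicle transport, had 42 and 57 reads against 0, at least 26.2-fold higher.

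Spink1, a trypsin inhibitor gene, was at 0 and 0.0475 CPM undamaged and at 6.42 and 17.2 CPM at CD 4d, and at or below 0.379 CPM in the CD 50d and CD 170d libraries. Hebp2, a heme-binding protein gene, was at 0.494 and 0.475 CPM and at 7.33 and 13.1 CPM (edgeR log2 fold change 4.39, adjusted p = 0.000662). In the other direction, Cnmd, the chondromodulin gene, was at 10.1 and 10.9 CPM and at 0.304 and 0 CPM (-6.07, adjusted p = 0.00202). Fitm1, a lipid droplet gene, was at 40.9 and 158 CPM and at 3.62 and 0.703 CPM (-5.52, adjusted p = 0.00278). Cfd, the adipsin gene of fat cells, was at 2.96 and 14.8 CPM undamaged, at 0.0338 and 0 CPM at CD 4d and at 65.9 and 63.3 CPM at CD 170d, so that it was lowest in the CD 4d pair and highest in the CD 170d pair of R&Zflox libraries; the amount of fat tissue taken with the liver is not given in the sources used here. Ugt1a8, a glucuronosyltransferase gene whose exons overlap its neighbours, had 24 and 30 reads in the undamaged libraries and 0 in both CD 4d libraries, at least 22.7-fold lower, and Esrrg, an orphan nuclear receptor gene, had 23 and 29 reads against 0, at least 21.9-fold lower.

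Esr1 was also at 359 and 198 CPM in the CD 4d libraries of mice with the deletion and at 242 and 96.0 CPM in the undamaged 7M libraries of such mice, whereas the undamaged R&Zflox 7M library was at 7.96 CPM. Oat was at 139 and 104 CPM in the CD 4d libraries with the deletion and at 3620 and 1296 CPM in the undamaged 7M libraries with it, against 466 CPM in the R&Zflox 7M library.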
